A study of Mus musculus with 8 samples.

Results

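The genes of insulin signalling described here are Insr, Irs1, Irs2, Pik3r1, Pik3ca, Akt1, Akt2, Foxo1 and Grb14, 9 of the 14317 mouse genes in the table. They were chosen by name, through the mouse Ensembl identifiers of those symbols, and all 9 were measured in every liver and entered the test. RNA was sequenced from the livers of 8 female mice, 4 with an empty vehicle pellet (Con-Veh) and 4 with a 10 mm silastic pellet of DHT, dihydrotestosterone, an androgen that cannot be converted to estrogen (Con-DHT). Both groups were fed a Western diet (WD) rich in fat, fructose and cholesterol for 8.5 weeks with the pellets in place, from about 7 weeks of age, and were fasted overnight before the livers were taken. Both groups are labelled WT. By the study's methods they carried a floxed allele with no deletion, and the pellets were replaced every 4 weeks. Each library came from 1 mouse, so the spread given below is between mice. The comparison asks whether androgen excess on this diet altered the transcripts of the hepatic insulin pathway.

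Insulin binds the insulin receptor (Insr), a tyrosine kinase, which phosphorylates the substrates IRS1 and IRS2. These recruit PI3-kinase, a pair of a regulatory subunit (Pik3r1) and a catalytic subunit (Pik3ca), whose lipid product activates the kinases AKT1 and AKT2. In the liver AKT phosphorylates FOXO1 and keeps it out of the nucleus, which shuts down gluconeogenic genes, while GRB14 binds the active receptor and restrains it. The pathway is driven largely by phosphorylation, which transcript levels do not measure.

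One arm of the pathway is also transcriptional, since FOXO1 is known to raise Irs2 and Igfbp1 in fasting through AT-rich insulin response elements. The promoters of both substrates are therefore shown with that of Igfbp1, a secreted binding protein for insulin-like growth factors and a classical FOXO1 target. Each is the 250 bases before a RefSeq start of transcription in GRCm38.p6, read 5′ to 3′ along the gene, with capitals for CAAAACA (the insulin response element, TGTTTTG when read on the other strand) and CACGTG (an E-box). Irs1 is at chr1:82291440-82291689 on the minus strand, Irs2 at chr8:11008930-11009179 on the minus strand and Igfbp1 at chr11:7197537-7197786 on the plus strand.
Irs1: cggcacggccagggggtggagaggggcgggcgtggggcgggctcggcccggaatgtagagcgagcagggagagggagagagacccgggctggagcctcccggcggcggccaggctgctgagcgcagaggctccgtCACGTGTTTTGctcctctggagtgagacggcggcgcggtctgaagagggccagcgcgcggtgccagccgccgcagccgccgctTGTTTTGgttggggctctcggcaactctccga
Irs2: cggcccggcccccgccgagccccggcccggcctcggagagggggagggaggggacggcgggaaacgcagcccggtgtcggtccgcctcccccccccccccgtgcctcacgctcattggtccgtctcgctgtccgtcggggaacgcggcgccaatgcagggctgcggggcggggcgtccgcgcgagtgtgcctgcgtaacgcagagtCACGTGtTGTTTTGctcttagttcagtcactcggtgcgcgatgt
Igfbp1: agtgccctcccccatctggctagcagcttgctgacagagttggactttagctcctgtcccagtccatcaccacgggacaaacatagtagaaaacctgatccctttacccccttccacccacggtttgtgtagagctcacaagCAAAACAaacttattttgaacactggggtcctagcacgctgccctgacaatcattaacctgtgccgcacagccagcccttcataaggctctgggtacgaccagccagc

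In the Irs1 window CAAAACA lay on the opposite strand at 111 to 105 and at 32 to 26 bases before the start, and CACGTG at 115 to 110, overlapping the first of them by 2 bases. In the Irs2 window the same pair lay next to each other, CACGTG at 44 to 39 and CAAAACA on the opposite strand at 37 to 31. Igfbp1 had 1 CAAAACA on its own strand, at 108 to 102. Among all 32851 windows of the same length, 5.56% held CAAAACA and 6.02% held CACGTG on either strand. Of the 9 members, 8 had windows, 13 in all, and 6 motifs were searched on both strands. Besides those of Irs1 and Irs2, an Akt1 window held GTAAACA, a FOXO core motif found in 3.17% of windows, and an Akt2 window held TTCNNNGAA, a STAT5 motif found in 7.02%. TCACCCCAC, a motif of SREBP, and TGACGTCA, of CREB, were in 0.496% and 1.55% of all windows and in none of the members'. The letters are a description of these windows and carry no measurement of binding.

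None of the 9 members passed the test for a difference between Con-DHT and Con-Veh with the adjusted p held to 0.05 or less (limma over 14312 genes), where 7.21% of all genes tested did. Of the members, 6 had higher and 3 lower fitted means in Con-DHT, with a median log2 fold change of 0.08 over the members and -0.0081 over all genes tested. At an unadjusted p of at most 0.05, 1 member passed, Grb14, where 23.2% of all genes did. The edgeR and DESeq2 tests on the recovered reads also passed 0 members, where 7.15% and 11.0% of all genes passed. At an unadjusted p of at most 0.05 they passed 1 member (Grb14) and 2 (Grb14 and Irs2), where 23.4% and 22.3% of all genes did. For 0 of the 9 were the groups separate, against 15.1% of all genes. Values are normalized counts, that is read counts divided by a size factor of the library. Reads on the members ran from 281 for Irs1 to 2892 for Insr per liver. In whole liver, fewer cells of a type and less RNA per cell cannot be told apart.

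**Figure D1:**
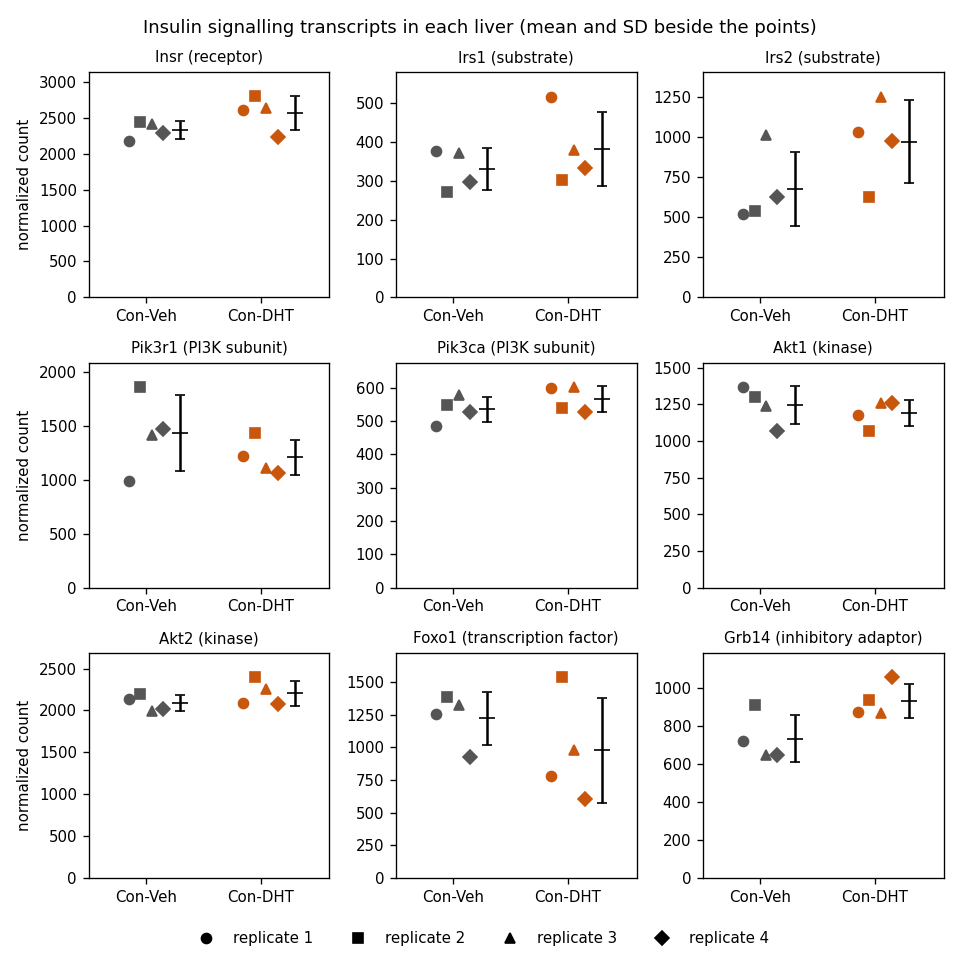
Normalized counts (y axes, from 0) of the 9 members in each of the 4 Con-Veh and 4 Con-DHT livers (x axes), 1 panel per gene, with the symbol showing the replicate number, the horizontal mark the mean and the error bar the SD. The groups overlap in every panel; Irs2 and Foxo1 spread most widely and Akt2 most narrowly.

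The receptor was among the abundant and steady members. Insr (ENSMUSG00000005534) measured 2177, 2448, 2414 and 2285 in Con-Veh and 2610, 2799, 2637 and 2240 in Con-DHT. Con-DHT 1, 2 and 3 lay above all Con-Veh livers, and the remaining liver, Con-DHT 4, lay within their range. The means were 2331 ± 124 and 2572 ± 236 (SD, n = 4 each), a log2 fold change of 0.14 with an SE of 0.08 (adjusted p = 0.351, limma). The 95% interval, unadjusted like those that follow, ran from 2.99% lower to 24.9% higher in Con-DHT, so that a halving or doubling of Insr lay well outside it. Without Con-DHT 3 and 4 the log2 fold change was 0.21 (adjusted p = 0.214).

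The substrates differed from each other in spread. Irs1 (ENSMUSG00000055980) measured 378, 271, 373 and 298 in Con-Veh and 518, 302, 380 and 334 in Con-DHT. Its highest value, in Con-DHT 1, stood apart from the other 7, which were intermixed. The log2 fold change was 0.20 with an SE of 0.17 (adjusted p = 0.539), and the interval ran from -11.9% to 49.6%. The fold change was 0.04 without Con-DHT 1, 0.11 without Con-Veh 2 and 0.30 without Con-DHT 2.

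Irs2 (ENSMUSG00000038894), the substrate known to rise in fasting liver, had the largest fitted difference of the 9. It measured 522, 537, 1014 and 626 in Con-Veh and 1031, 625, 1252 and 976 in Con-DHT. Each group held 1 liver out of step with its others: Con-Veh 3 was as high as the higher Con-DHT livers, and Con-DHT 2 was as low as the other Con-Veh livers. The means were 675 ± 231 and 971 ± 260, with a log2 fold change of 0.54, an SE of 0.24 and an adjusted p of 0.216. The interval ran from 0.098% lower to 110.5% higher. DESeq2 gave an adjusted p of 0.172. Without Con-DHT 3 and 4 the log2 fold change was 0.31 (adjusted p = 0.611), and with 1 liver left out at a time it ran from 0.40 to 0.75.

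The catalytic subunit of PI3-kinase was steadier than the regulatory one. Pik3ca (ENSMUSG00000027665) measured 486, 548, 577 and 528 in Con-Veh and 598, 539, 602 and 528 in Con-DHT. Within this narrow range Con-DHT 1 and 3 were highest, Con-Veh 1 was lowest and the other livers of both groups were intermixed. Its log2 fold change was 0.08 with an SE of 0.08 (adjusted p = 0.589) and an interval of -6.53% to 20.3%. Pik3r1 (ENSMUSG00000041417) measured 992, 1858, 1412 and 1470 in Con-Veh and 1219, 1428, 1106 and 1065 in Con-DHT. The Con-Veh livers supplied both its lowest and its highest value, and all Con-DHT livers fell between them. Its log2 fold change was -0.22 with an SE of 0.17 (adjusted p = 0.475) and an interval of -34.1% to 11.2%. It was -0.39 without Con-Veh 1 (adjusted p = 0.121), -0.09 without Con-Veh 2 and -0.08 without Con-DHT 3 and 4.

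The AKT kinases, which pass the signal to metabolic enzymes and to FOXO1, showed small differences with narrow intervals. Akt1 (ENSMUSG00000001729) measured 1370, 1301, 1240 and 1072 in Con-Veh and 1178, 1071, 1260 and 1257 in Con-DHT. The lowest livers of both groups were level with each other and the upper Con-Veh livers were highest. Its log2 fold change was -0.06 with an SE of 0.09 (adjusted p = 0.742), and it turned to 0.04 when libraries were scaled to equal totals with the Mup genes (major urinary proteins) set aside, and to 0.14 when scaled by the spike-ins. These scalings moved the median of all genes to 0.09 and 0.19, above the Akt1 values. Akt2 (ENSMUSG00000004056), the form known to serve insulin action in liver, measured 2139, 2195, 1989 and 2018 in Con-Veh and 2093, 2395, 2260 and 2078 in Con-DHT. Con-DHT 2 and 3 were highest and the other livers of both groups were intermixed. Its log2 fold change was 0.08 with an SE of 0.07 (adjusted p = 0.552) and its interval of -5.32% to 18.0% was the narrowest of the 9 on the log2 scale. With 1 liver left out at a time the log2 fold change ran from -0.13 (without Con-Veh 4) to -0.01 (without Con-DHT 2) for Akt1, from 0.04 (without Con-DHT 2) to 0.11 for Akt2 and from 0.04 (without Con-Veh 1) to 0.12 for Pik3ca.

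Foxo1 (ENSMUSG00000044167), the transcription factor at the end of this chain, varied most between DHT-treated livers. It measured 1259, 1383, 1322 and 923 in Con-Veh and 780, 1536, 982 and 608 in Con-DHT. Con-DHT 1 and 4 were below every Con-Veh liver, whereas Con-DHT 2 was above every one of them. The means were 1222 ± 205 and 976 ± 403, and the coefficient of variation was 16.8% in Con-Veh and 41.3% in Con-DHT, a contrast of spreads that was not tested. The log2 fold change was -0.39 with an SE of 0.25 (adjusted p = 0.382) and an interval of -47.9% to 11.4%. It was -0.64 without Con-DHT 2 (adjusted p = 0.0845), -0.19 without Con-DHT 4 and -0.14 without Con-DHT 3 and 4.

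Grb14 (ENSMUSG00000026888), the inhibitory adaptor, came closest to the threshold. It measured 724, 911, 650 and 649 in Con-Veh and 874, 936, 868 and 1058 in Con-DHT. All Con-DHT livers were above 3 of the Con-Veh livers, and the overlap came from Con-Veh 2 alone, which exceeded Con-DHT 1 and 3. The means were 734 ± 123 and 934 ± 88.1, with a log2 fold change of 0.36, an SE of 0.12, an unadjusted p of 0.0117 and an adjusted p of 0.0971 (limma). The interval ran from 7.02% to 53.3% higher. It passed at an adjusted p of 0.0260 without Con-Veh 2 and of 0.0405 with the Mup-free scaling, where 4.53% and 9.01% of all genes passed. It did not pass in the other 20 alternatives.

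**Figure D2:**
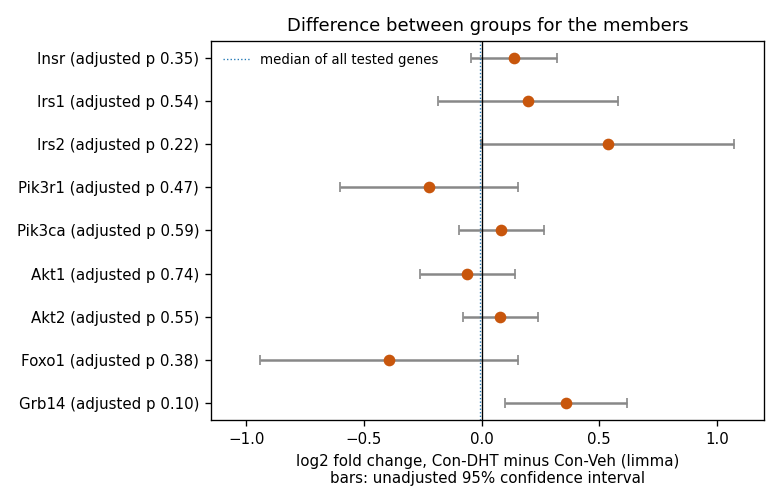
Fitted log2 fold change of Con-DHT against Con-Veh (x axis, points) for the 9 members (y axis), with bars for the unadjusted 95% confidence interval and the limma adjusted p beside each name. The interval of Grb14 alone lies wholly above 0 and that of Irs2 just reaches it, while the point for Akt1 lies below 0 here and above it with 2 other scalings, which move the median of all genes to 0.09 and 0.19.

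The members also differed in how closely livers of a group matched. Ranked by the residual SD of the log2 values, 7.96% of all genes tested were tighter than Akt2, 14.2% tighter than Pik3ca, 18.1% tighter than Insr and 26.6% tighter than Akt1. Grb14 stood near the middle, at 45.4%. Irs1 and Pik3r1 were more variable than most genes, at 66.9% and 67.4%, and Irs2 and Foxo1 the most variable members, at 83.2% and 84.0%. The receptor, the catalytic subunit and the kinases were thus the steadier transcripts, and one substrate and the transcription factor the less steady ones.

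Levels were put on a common scale by dividing by the summed exon length of each gene. That length counts all annotated exons, whether or not liver uses them. Before this division Insr had the highest Con-Veh mean, 2331 against 2085 for Akt2 and 1246 for Akt1. In Con-Veh the order of mean normalized counts per kb was Akt1 at 304 ± 31, Akt2 at 292 ± 13.7, Insr at 170 ± 9.04, Pik3r1 at 142 ± 35.2, Foxo1 at 141 ± 23.7, Irs2 at 107 ± 36.5, Grb14 at 102 ± 17.2, Pik3ca at 58.9 ± 4.21 and Irs1 at 36.1 ± 5.89. The ranges of neighbours overlapped except between Akt2 and Insr, between Grb14 and Pik3ca and between Pik3ca and Irs1. On this scale the kinases were the most abundant members and Pik3ca and Irs1 the least. In Con-DHT the same breaks were found, below the kinases, above Pik3ca and between Pik3ca and Irs1. Akt2 at 309 ± 21.1 and Akt1 at 291 ± 21.7 were on top, and Pik3ca at 62.4 ± 4.26 and Irs1 at 41.9 ± 10.4 were last. The 5 members between them, with overlapping neighbours, were ordered Insr, Irs2, Grb14, Pik3r1 and Foxo1, where Con-Veh had Insr, Pik3r1, Foxo1, Irs2 and Grb14.

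**Figure D3:**
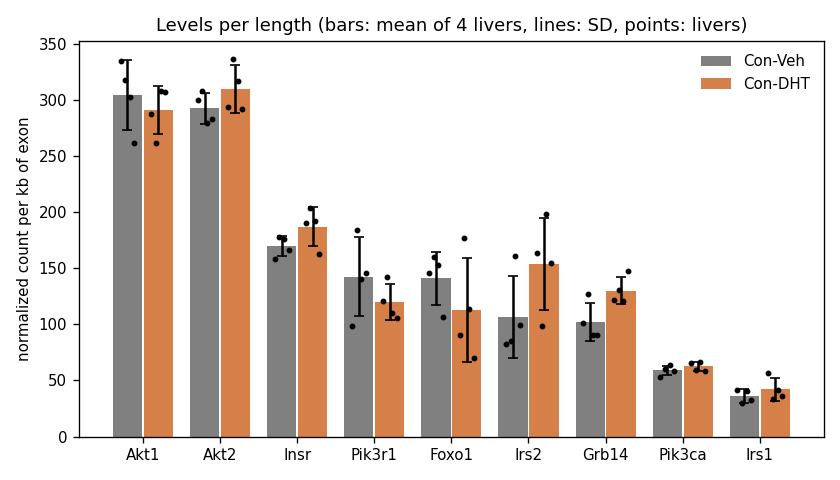
Normalized count per kb of exon (y axis, from 0) of the 9 members, ordered by their Con-Veh mean (x axis), with bars for the mean of 4 livers, lines for the SD and points for single livers. Akt1 and Akt2 are highest and Pik3ca and Irs1 lowest in both groups.

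Balances between partners were compared within each liver as ratios of normalized counts, with exact two-sided permutation tests over the 70 arrangements of 4 against 4 (smallest possible p 0.0286), adjusted over 4 ratios. The ratio of Irs1 to Irs2 had a geometric mean of 0.504 in Con-Veh against 0.399 in Con-DHT (log2 difference -0.34, exact permutation p = 0.229, adjusted 0.286). That of Pik3r1 to Pik3ca was 2.62 and 2.11 (difference -0.31, exact permutation p = 0.143, adjusted 0.286). That of Akt2 to Akt1 was 1.68 and 1.85 (difference 0.14, exact permutation p = 0.286, adjusted 0.286). None of these shifts passed the permutation test at the threshold used for genes, before or after adjustment. The ratio of Grb14 to Insr was 0.333, 0.373, 0.270 and 0.284 in Con-Veh and 0.335, 0.335, 0.329 and 0.472 in Con-DHT (difference of log2 means 0.22, exact permutation p = 0.229, adjusted 0.286). Con-DHT 4 was the highest, while the other 3 Con-DHT livers fell within the Con-Veh range.

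Among other genes of the pathway, taken from a list of 61 of which 57 were tested, 4 passed and all were higher in Con-DHT: Trib3, Prkcz, Gsk3b and Pik3c2a. The share called higher among all genes was 4.60% and lower 2.61%. The median log2 fold change over the 57 was 0.06, 16 reached 0.05 before adjustment (10 higher and 6 lower), and 9 had groups that did not overlap. Those counts are 28.1% and 15.8% of the list, against 23.2% and 15.1% of all genes tested. Insrr, Irs4, Foxo6 and Socs1 had no values under those symbols among the 14317 mouse genes and so were not tested.

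Trib3, a pseudokinase that binds AKT and can restrain it, rose most. It measured 158, 133, 149 and 191 in Con-Veh and 306, 260, 291 and 274 in Con-DHT. Every DHT-treated liver was well above every vehicle liver. The means were 158 ± 24.3 and 283 ± 19.9, a log2 fold change of 0.85 with an SE of 0.12 and an adjusted p of 0.00273. It passed in all 22 alternatives.

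Prkcz, an atypical protein kinase C acting downstream of PI3-kinase, measured 380, 442, 395 and 432 in Con-Veh and 562, 720, 564 and 495 in Con-DHT. The groups did not overlap, and Con-DHT 2 was highest. The log2 fold change was 0.49 with an SE of 0.11 (adjusted p = 0.0281), and it passed in 15 of 22 alternatives. Gsk3b, a kinase that AKT inhibits and that restrains glycogen synthesis, measured 523, 578, 586 and 572 in Con-Veh and 711, 643, 713 and 760 in Con-DHT, again without overlap. Its log2 fold change was 0.32 with an SE of 0.08 (adjusted p = 0.0310). Pik3c2a, a class II PI3-kinase, measured 408, 351, 329 and 294 in Con-Veh and 449, 445, 464 and 486 in Con-DHT. All Con-DHT livers were higher and closely grouped. Its log2 fold change was 0.42 with an SE of 0.10 (adjusted p = 0.0328). Gsk3b and Pik3c2a each passed in 11 of 22 alternatives. With 1 liver left out at a time, Gsk3b passed only without Con-DHT 2 and Pik3c2a only without Con-Veh 1, whereas Prkcz missed the threshold without Con-Veh 1, 3 or 4 or Con-DHT 1 or 3.

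By role, 0 of 3 receptor-level genes, 0 of 7 adaptors, 1 of 8 PI3-kinase genes, 2 of 9 downstream kinases, 0 of 11 genes around mTOR, 0 of 2 further FOXO genes and 1 of 17 inhibitors passed. Among all genes tested 7.21% passed. Igf1r, the receptor of IGF1, had the highest receptor-level log2 fold change, 0.43 (71.6 ± 8.80 and 97.1 ± 11.8, adjusted p = 0.103). Ceacam1, which aids insulin clearance, had the lowest, -0.17 (2458 ± 225 and 2181 ± 75.2, adjusted p = 0.234). Scaled by the spike-ins Ceacam1 was at 0.03, where the median of all genes was 0.19. The groups of Igf1r values did not overlap. Among adaptors the ends were Dok1 at 0.19 (adjusted p = 0.695; -0.04 without Con-DHT 3 and 4) and Sh2b2 at -0.24 (adjusted p = 0.440). For all 7 adaptors the groups overlapped, where 15.1% of all genes tested had groups that did not.

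Among the downstream kinases Sgk1, a kinase related to AKT, had the lowest log2 fold change, -0.51 (349 ± 68.0 and 242 ± 28.5, adjusted p = 0.0768). It passed with DESeq2 (adjusted p = 0.0228) and without Con-Veh 3 (adjusted p = 0.00933). Around mTOR, the growth kinase that AKT activates, Rheb was highest at 0.24 (761 ± 17.0 and 903 ± 59.2, adjusted p = 0.0632) and Mlst8 lowest at -0.17 (adjusted p = 0.466; 0.03 when scaled by the spike-ins). All 4 Con-DHT livers were above all Con-Veh livers for Rheb, the small GTPase that activates mTOR, which passed with DESeq2, with the Mup-free scaling and without Con-DHT 1. Foxo3 and Foxo4, which share the FOXO DNA-binding domain, had log2 fold changes of 0.29 and 0.06 (adjusted p = 0.464 and 0.743). Grb10, the closest relative of Grb14, had the lowest log2 fold change among inhibitors, -0.42 (62.7 ± 7.20 and 46.8 ± 6.56, adjusted p = 0.153), opposite in sign to Grb14. The groups of Grb10 values did not overlap.

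Within the PI3-kinases Pik3r3 had the highest log2 fold change, 0.53 (27.7 ± 11.2 and 37.9 ± 4.88, adjusted p = 0.335). Pik3cg, a catalytic subunit found mainly in leukocytes, was lowest at -0.68 (12.9 ± 1.32 and 7.94 ± 2.51, adjusted p = 0.215), on only 6 to 16 reads per liver. All 8 Kupffer cell markers had lower means in Con-DHT and 4 passed, with sums of 7307 to 8997 in Con-Veh and 4917 to 6709 in Con-DHT, and 6 of 7 sinusoidal endothelial markers had lower means and 2 passed, with sums of 3666 to 4216 and 2793 to 3316. No marker of either list was at 0 in any liver, and the part of these cells in the Pik3cg values was not tested. Among all genes 2.61% passed as lower. Kupffer markers passing numbered 5 with DESeq2, 3 with the Mup-free scaling or the replicate block and 0 with the spike-ins. Sinusoidal ones numbered 3 with DESeq2 and 1 with edgeR or the spike-ins. With DESeq2 11.0% of all genes passed in either direction.

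**Figure D4:**
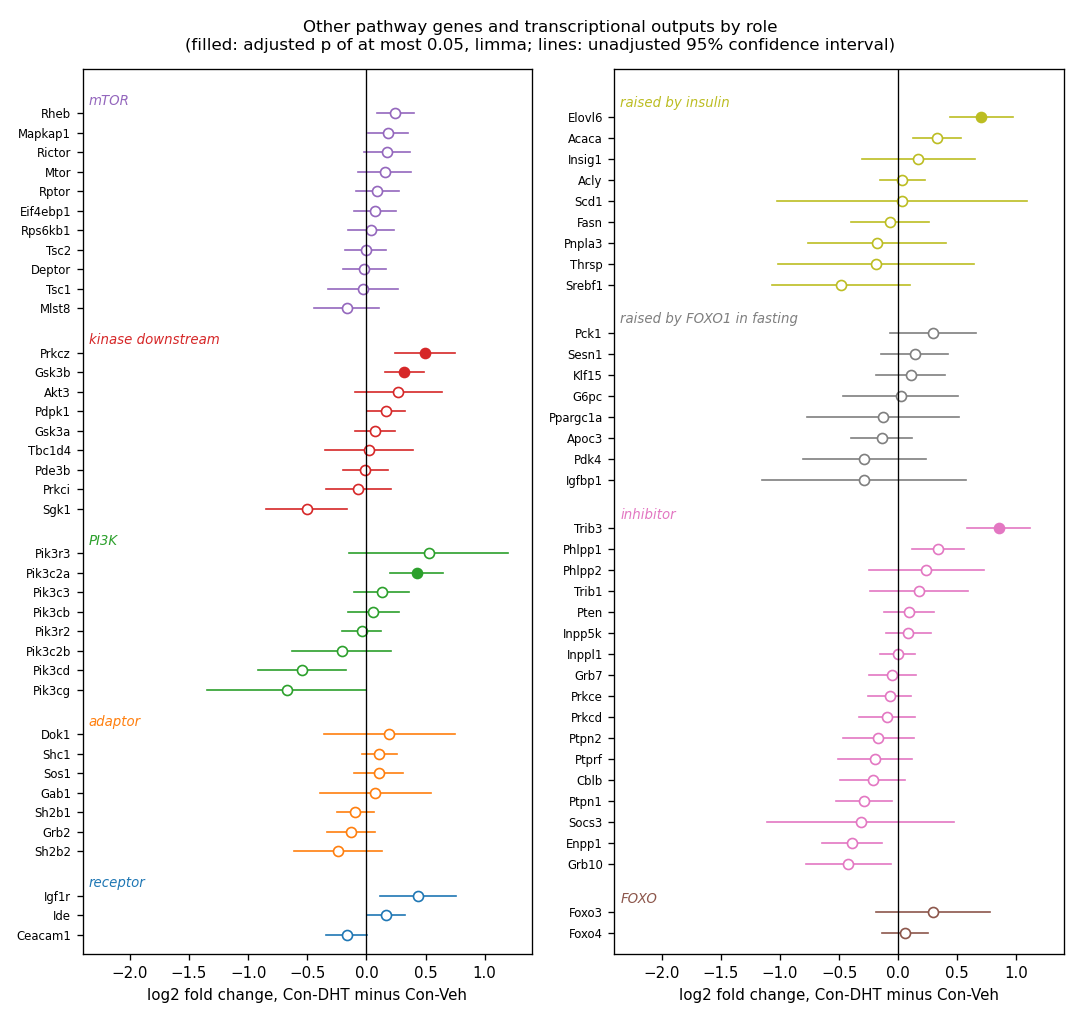
Fitted log2 fold change of Con-DHT against Con-Veh (x axes) for 57 other pathway genes and 17 transcriptional outputs (y axes), coloured by role, with lines for the unadjusted 95% confidence interval. Filled points passed at an adjusted p no higher than 0.05 and are Pik3c2a, Gsk3b, Prkcz, Trib3 and Elovl6, all to the right of 0, while scaling by the spike-ins, which moves the median of all genes to 0.19, takes the pathway genes above 0 from 31 to 47 and the outputs from 9 to 14.

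The transcripts that insulin signalling controls were described from a list of 17 genes. Of 8 genes raised by FOXO1 in fasting, 0 passed, where 7.21% of all genes tested did. At an unadjusted p of at most 0.05, 0 of the 8 passed with limma, where 23.2% of all genes did. Pck1, encoding the gluconeogenic enzyme PEPCK, had the highest log2 fold change of the 8 at 0.29 (63182 ± 8214 and 77421 ± 11024, adjusted p = 0.322), and Igfbp1 the lowest at -0.29 (adjusted p = 0.708). With DESeq2, Pck1 had an unadjusted p of 0.0282 and an adjusted p of 0.156. Igfbp1 measured 4931, 3796, 1337 and 2438 in Con-Veh and 2060, 1423, 3587 and 2600 in Con-DHT. Its livers were fully intermixed, with a range wider on the log2 scale than that of any member.

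Of 9 genes raised by insulin, 1 passed, while 2 reached 0.05 before adjustment, both higher, against 7.21% and 23.2% of all genes tested. Elovl6, which elongates the fatty acids made by lipogenesis, measured 351, 340, 279 and 342 in Con-Veh and 572, 586, 426 and 562 in Con-DHT. The groups were separate, although replicate 3 was lowest in both. The means were 328 ± 33.2 and 537 ± 74.6, a log2 fold change of 0.70 with an SE of 0.12 and an adjusted p of 0.00707, and it passed in 21 of 22 alternatives. The other was Acaca, the enzyme of the first committed step of fatty acid synthesis, named after its values were seen. It measured 682, 814, 763 and 733 in Con-Veh and 1004, 1021, 811 and 929 in Con-DHT, where Con-DHT 3 alone lay within the Con-Veh range. The fitted log2 fold change was 0.33 with an SE of 0.09 (adjusted p = 0.0571), and it passed in 5 of 22 alternatives. Of 5 adipocyte markers, which include lipid-storage genes that fatty liver also expresses, 0 passed, against 7.21% of all genes tested. With the spike-in scaling 1 of the 5 passed, and all 5 reached 0.05 before adjustment, where 10.6% of all genes did. With edgeR 2 of the 5 reached 0.05 before adjustment, where 23.4% of all genes did. All 5 had higher means in Con-DHT, with sums of 856 to 1235 in Con-Veh and 950 to 3854 in Con-DHT. Con-DHT 3 and 4 held the high sums, with Cfd at 1713 and 2033. Adipoq, Cidec and Cfd were highest in both. Plin1 (67.4) and Lep (1.02) were lowest of all livers in Con-DHT 3 and highest in Con-DHT 4. Without Con-DHT 3 and 4 Elovl6 had a log2 fold change of 0.83 (adjusted p = 0.0123) and Trib3 of 0.85 (adjusted p = 0.0346). In that fit 0 members passed, where 3.32% of all genes did.

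Srebf1, encoding the lipogenic transcription factor SREBP1, had the lowest log2 fold change of the genes raised by insulin. It measured 1366, 2442, 3014 and 1758 in Con-Veh and 2181, 1595, 1128 and 1176 in Con-DHT. Con-DHT 3 and 4 were below every Con-Veh liver, and the other livers were intermixed. The log2 fold change was -0.48 with an SE of 0.26 (adjusted p = 0.305) and an interval of -52.3% to 7.21%, and without Con-DHT 3 and 4 it was -0.14. Exons of 3 of the named list genes overlap a gene on the opposite strand, and reads of such pairs may not be told apart: Srebf1 with Rai1 (means over all livers of 1833 and 385), Elovl6 with Gm35986 (432 and 13.0) and Pik3c2a with Gm44777 (403 and 22.6).

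Single livers stood at the ends of several ranges, as noticed after the values were seen and not tested. Con-DHT 2, with the highest Foxo1, Insr and Akt2 of its group, also had the highest Thrsp, a lipogenic gene (494, against 132 to 183 in the other Con-DHT livers), and the lowest Irs2. Con-DHT 4, with the lowest Foxo1, Insr, Akt2 and Pik3r1, had the highest Grb14 of all livers. In the other group the order differed: Con-Veh 2 had the highest Foxo1, Insr, Akt2 and Pik3r1 and also the highest Grb14.

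**Figure D5:**
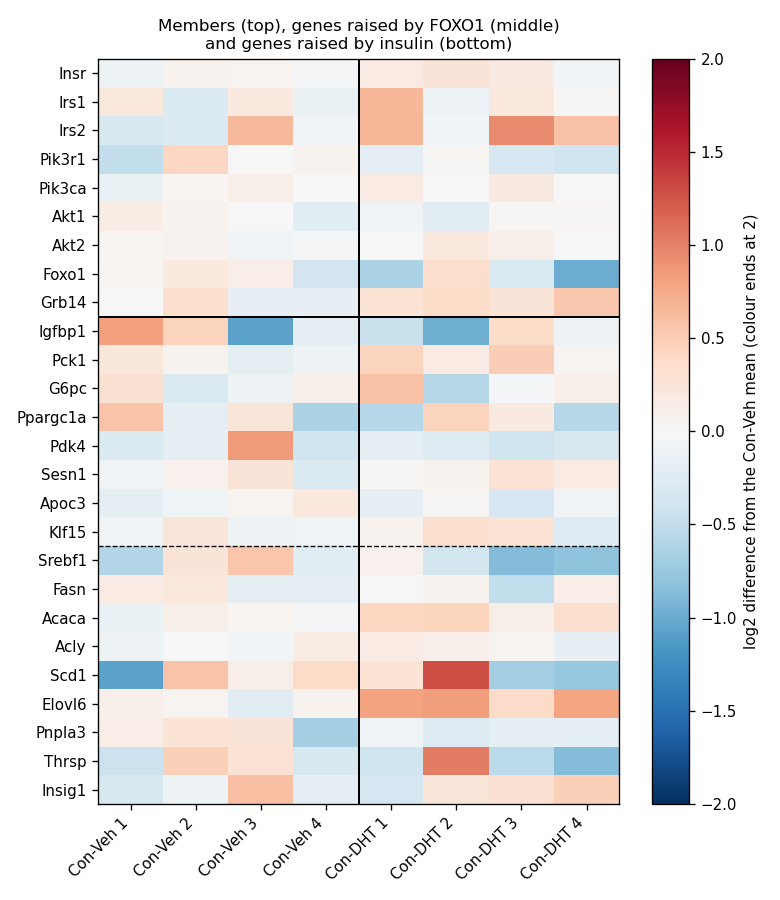
Difference of each liver from the Con-Veh mean in log2(normalized count + 1), as colour from blue (lower) to red (higher), for the 9 members, 8 genes raised by FOXO1 and 9 raised by insulin (rows) in the 8 livers (columns). Elovl6 is red in all Con-DHT livers, and Foxo1 is bluest in Con-DHT 4 and red in Con-DHT 2.

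The genes whose log2 values followed those of the members nearest the threshold most closely over the 8 livers were found among 10725 genes, as a description, since livers of both groups contribute to the likeness. For Grb14 they were Gnl3l (Pearson r = 0.986), Khdrbs1 (0.985) and Cdk17 (0.955), with 28 genes above 0.9. For Irs2 they were Map3k21 (0.955), Frat2 (0.944) and Rnmt (0.944), with 11 genes above 0.9. None of these 6 passed the test between groups, with log2 fold changes of 0.14 to 0.43.

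Depth and tissue were checked once for all libraries. Reads on mouse genes ran from 13123962 to 17815944 per library, and spike-in RNA took 1.68% to 3.61% of reads in Con-Veh and 2.22% to 2.75% in Con-DHT. All 7 hepatocyte markers were present in every liver and 0 passed with limma, where 0 also reached an unadjusted p of 0.05. DESeq2 passed 1, higher in Con-DHT. Before adjustment 2 reached 0.05 with edgeR (1 higher and 1 lower) and 3 with DESeq2 (1 higher and 2 lower). The shares of all genes were 23.4% and 22.3%. By limma 7.21% of all genes tested passed, and 23.2% reached 0.05 before adjustment. Summed stellate cell markers were 1526 to 4417 in Con-Veh and 2204 to 2580 in Con-DHT, and those of cholangiocytes 881 to 1049 and 856 to 1174, with 0 passed in either list. Of the lymphocyte and pancreatic acinar lists, 1 gene of 8 and 1 of 5 were measured, at sums of at most 23.1 and 33.7.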

How the data were processed

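Livers of 4 Con-Veh and 4 Con-DHT mice were analysed, with groups and replicate numbers from the labels. Per the submitters' processing notes and the study's methods, the authors trimmed reads with Trimmomatic, aligned them with STAR (GRCm39 is named), counted them with featureCounts and normalized them with DESeq2. What they deposited is a signal, the normalized read count (reads over 1 size factor per library). Every value was a whole multiple of its library's step (100% within a tolerance of 0.01), which gave the reads back. No feature with fewer than 81 reads over the libraries was in the table, which also held 54 ERCC spike-ins, left out of the tests.

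Mouse genes whose mean reached 10 were tested on log2(value + 1) with limma 3.58.1 (trend, two-sided, R 4.3.3), with Benjamini-Hochberg adjustment over 14312 genes and a threshold of 0.05. The pseudocount shrinks fold changes of low genes. Alternatives on recovered reads were edgeR 4.0.16 (quasi-likelihood, TMM) and DESeq2 1.42.0. Others were pseudocounts of 0.1 and 5, no or a stricter filter (mean of 50), 4 scalings, no trend, array weights, a block for the replicate number and leaving out each library. A fit without Con-DHT 3 and 4 was added after the data were seen. Scripts were tested on simulated data.

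Symbols and exon lengths were taken from GENCODE M21 (GRCm38), matched by Ensembl identifier, and promoters from RefSeq (GRCm38.p6). Members and gene lists were chosen with earlier results of these data known. Named are the 9 members, list genes that passed, the highest and lowest fold change in each role, and the 3 genes most like the 2 members of smallest p. 1 further output gene is not reported here and enters no count or figure, which leaves 17. Thrsp and Acaca were named after their values were seen. Same-group libraries differed by a chi-square per degree of freedom of 19.1 to 61.2, so each counted as 1 replicate. Python 3.11.15 was used with scipy 1.17.1 for permutations.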

Additional observations from a re-analysis of the deposited data

Results flagged for a closer look

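Each member, each list gene named and each ratio was checked in each group of 4 for a liver whose gap to its nearest neighbour took up most of the group's range, 70 checks in all, of which chance flags about 1 in 20. Of these, 7 stood out. Elovl6 had its lowest value in replicate 3 of both groups, 279 in Con-Veh with a gap of 0.848 of the range and 426 in Con-DHT with a gap of 0.848. Pik3r3 was lowest in Con-DHT 3 at 30.6 (0.958 of the range) and Sgk1 in Con-Veh 3 at 248 (0.882). Thrsp was highest in Con-DHT 2 at 494 (0.857). Mlst8 was highest in Con-DHT 4 at 150.0 (0.949), and so was the ratio of Grb14 to Insr at 0.472 (0.958).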

How the results depend on the processing

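Of 9 members, 0 passed in any alternative except that Grb14 did when libraries were scaled without the Mup genes and without Con-Veh replicate 2 (1 member each), a range of 0 to 1 when leaving out each liver in turn. All genes passing numbered 1032, and 648 with a mean of at least 50, 636 when scaled by the spike-ins, 1569 with DESeq2, 475 without Con-DHT 3 and 4, and 633 to 905 leaving out each liver (648 without Con-Veh 2, 633 without Con-Veh 4, 659 without Con-DHT 1 and 662 without Con-DHT 2). Pathway genes passing numbered 4, and 8 without the Mup genes, 1 with the spike-ins, 1 without the trend, 9 with DESeq2 (6 higher and 3 lower), 2 without Con-DHT 3 and 4, and 1 to 3 leaving out each liver, where Trib3 alone passed without Con-Veh 4 or Con-DHT 3, Trib3 and Pik3c2a without Con-Veh 1, and Trib3 and Sgk1 (lower) without Con-Veh 3. Output genes passing numbered 1, and 0 with the spike-ins, 2 without the Mup genes, with the upper quartile, with DESeq2 and without Con-DHT 3 and 4, and 1 to 2 leaving out each liver (2 without Con-DHT 3). Directions turned for Akt1 without the Mup genes (0.037) and with the spike-ins (0.14), for Ceacam1 (0.031) and Mlst8 (0.030) with the spike-ins, for Thrsp with the spike-ins (0.0071), without Con-DHT 3 and 4 (0.32) and leaving out each liver (-0.60 to 0.035, the last without Con-DHT 4), and for Dok1 without Con-DHT 3 and 4 (-0.041). Both scalings shift all genes, with medians of 0.09 and 0.19, and the values turned by either lie below its median. Pathway genes above 0 went from 31 to 42 and 47. Scaling without the Mup genes called 1082 genes higher and 208 lower, and the spike-ins 561 and 75, against 658 and 374. Differences of the log2 ratios kept their sign leaving out each liver: -0.49 to -0.16 for Irs1 to Irs2, 0.05 to 0.20 for Akt2 to Akt1, -0.43 to -0.18 for Pik3r1 to Pik3ca and 0.09 to 0.30 for Grb14 to Insr. The causes were not tested.

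The labels number mice 1 to 4 in both groups, but deviations of same-numbered livers had r of -0.15, 0.06, 0.0068 and -0.03, and each library is a separate mouse, so the numbers were treated as names only. With the replicate block 700 genes, 0 members, 2 pathway genes (Prkcz and Trib3) and 1 output gene (Elovl6) passed. No liver deviated most like its own number in the other group.

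With 4 mice a group, intervals for Irs2 and Foxo1 span large differences, and the ratio tests cannot go below a p of 0.0286.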
